A study of Oryza sativa Japonica Group with 12 samples.

Results

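Panicles of rice that lack a working FST were profiled at 2 stages, and the question here was which transcripts differed from wild type unequally before flowering (BF) and at 5 days after pollination (5 DAP). For each probe set of the Affymetrix Rice GeneChip, the effect of fst against wild type (WT) was taken at each stage in log2, and the effect before flowering was subtracted from the effect at 5 DAP. This difference of differences is called the interaction, so a negative value means that fst was lower relative to WT at 5 DAP than it was before flowering, and a positive value the reverse. All 12 of the 12 arrays of the series entered it, in 4 groups of 3 arrays: fst panicles at 5 DAP (M5D), WT panicles at 5 DAP (W5D), fst panicles before flowering (MBF) and WT panicles before flowering (WBF). Both genotypes are japonica rice, cultivar Junambyeo. The fst plants, whose labels use the older name cynosure (cyn), are 1 mutant line that carries a frame shift in FST and are female-sterile. RNA for each array came from 20 panicles, pooled over 10 plants. The description field of the fst arrays speaks of cyn wild lines, while title, source name and genotype name the mutant, and these 3 fields were followed.

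FST is OsMADS29, a B-sister MADS-box gene. B-sister genes are the sister group of the B-class floral homeotic genes and are known for work in the ovule, in the integuments and nucellus that surround the embryo sac. In cereals the tissues that follow from a fertilized ovule are a starchy endosperm, which fills with glutelins, prolamins and starch, and a small embryo. Before flowering the panicle holds anthers with tapetum, the cell layer that feeds the pollen, and unfertilized ovaries. The tissue labelled panicle carried its floral markers in all groups: OsMADS3, a stamen and carpel gene, had group means between 408 and 667 in signal, and DL, a carpel gene, between 367 and 624.

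The signals were on a linear scale and had medians between 30.8 and 33.6 over the 12 arrays. The lowest signal in the table was 3.001. Arrays of a group correlated with each other at r of 0.99 to 0.996 in log2. No label says whether the 3 pools of a group came from separate plantings, so the p-values measure the spread between these pools. Of the 57258 probe sets, 22436 had 1 gene in the annotation, 95 had several and 34727 had none.

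The effect of fst depended on the stage at 3636 of 57258 probe sets, 6.35% of those tested (adjusted p under 0.05, limma with Benjamini-Hochberg adjustment). The interaction was below 0 at 1574 of them (2.75% of those tested) and above 0 at 2062 (3.6%). At an unadjusted p under 0.05 there were 12758. The lower side held fewer probe sets but much larger changes. The median interaction was -1.15 among the lower calls and 0.89 among the higher calls, against -0.029 over all probe sets (quartiles -0.24 and 0.21). Interactions of at least 2 in size numbered 319 on the lower side and 72 on the higher side, those of at least 4 numbered 103 and 5, and all 13 of at least 8 were on the lower side. Centring each array on a common median moved the split: lower calls then made up 29.8% of the calls, against 43.3% without centring, and the median over all probe sets was 0.062.

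**Figure D1:**
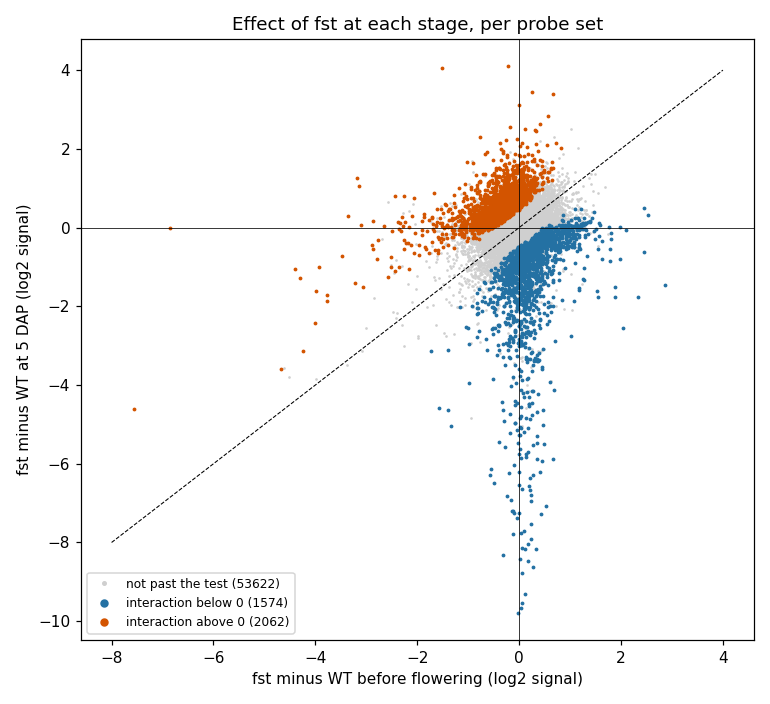
Each point is a probe set, placed by its fst effect before flowering (horizontal axis, log2) and at 5 DAP (vertical axis, log2); the dashed line marks equal effects. The 1574 probe sets with an interaction below 0 (blue) lie under the line and reach furthest down near a BF effect of 0, and the 2062 with an interaction above 0 (orange) lie over it, many of them to the left, where fst was lower than WT before flowering.

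Most of the lower side came from transcripts that were lower in fst at 5 DAP with no effect past the test before flowering. Of the 1574 lower calls, 1080 (68.6%) were of this kind, 259 (16.5%) were higher in fst before flowering with none past the test at 5 DAP, and 44 were lower at 5 DAP and higher before flowering. Another 34 were lower in fst at both stages and more so at 5 DAP, 2 were higher at both, and 155 passed at neither stage. For comparison, 5.41% of all probe sets were lower in fst at 5 DAP and 6.22% higher, while 2.8% were lower and 1.81% higher before flowering. The higher side was more mixed: 1178 of the 2062 (57.1%) were higher in fst at 5 DAP only, 463 (22.5%) were lower in fst before flowering only, 89 were higher at 5 DAP and lower before flowering, 25 were lower at both and less so at 5 DAP, 16 were higher at both, and 291 passed at neither. The stage effects and the interaction are made from the same arrays, so these classes describe how an interaction arose and do not support it.

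Read along the time axis, the lower side held above all transcripts that WT panicles gained between the stages. In 698 of the 1574 (44.3%) the signal was higher at 5 DAP than before flowering in WT and the change did not pass the test in fst, in 275 it was lower at 5 DAP in fst and did not pass in WT, and in 127 it was lower at 5 DAP in fst and higher in WT. The median change to 5 DAP among the lower calls was -0.30 in fst and 0.69 in WT, against 0.01 and 0.06 over all probe sets. On the higher side, 786 of 2062 (38.1%) were higher at 5 DAP in fst and did not pass in WT, and 582 (28.2%) were lower at 5 DAP in WT and did not pass in fst. Over all probe sets, 15.6% were higher at 5 DAP and 11.2% lower in fst, and 16.4% were higher and 14.9% lower in WT. The group with the highest mean was W5D for 1012 of the lower calls (64.3%) and MBF for 475 (30.2%), while it was M5D for 1267 of the higher calls (61.4%) and WBF for 734 (35.6%).

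The arrays of the called probe sets were usually apart. The calls were picked on these same arrays, so the choice favours such separation, and the counts describe the calls without supporting them. Among the lower calls, the 3 fst arrays and the 3 WT arrays did not overlap at both stages in 517, at 5 DAP alone in 800 and at BF alone in 255. Among the higher calls these counts were 869, 779 and 413. Over all probe sets the arrays of the genotypes were apart at both stages in 8.92%, at 5 DAP alone in 17.8% and at BF alone in 19.5%.

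Calls were found at every level of signal, with a direction that shifted with the level. Probe sets were put in 5 classes by their mean log2 signal over all 12 arrays. In the dimmest class, under 4 in log2 (a signal of 16), 1.78% of 20217 passed. The share was 6.64% between 4 and 6, 11.9% between 6 and 8, 9.87% between 8 and 10, and 7.06% at 10 and over (a signal of 1024). Lower calls made up 57.5%, 52.9%, 42.5%, 31.5% and 32.4% of the calls in these classes, in order of signal. The median interaction over all probe sets of each class was -0.08, -0.11, 0.09, 0.13 and 0.06. The shift in direction was therefore not particular to the calls. The median interaction of the lower calls was -1.33 between 4 and 6 and -0.83 at 10 and over, and that of the higher calls 1.05 and 0.71.

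**Figure D2:**
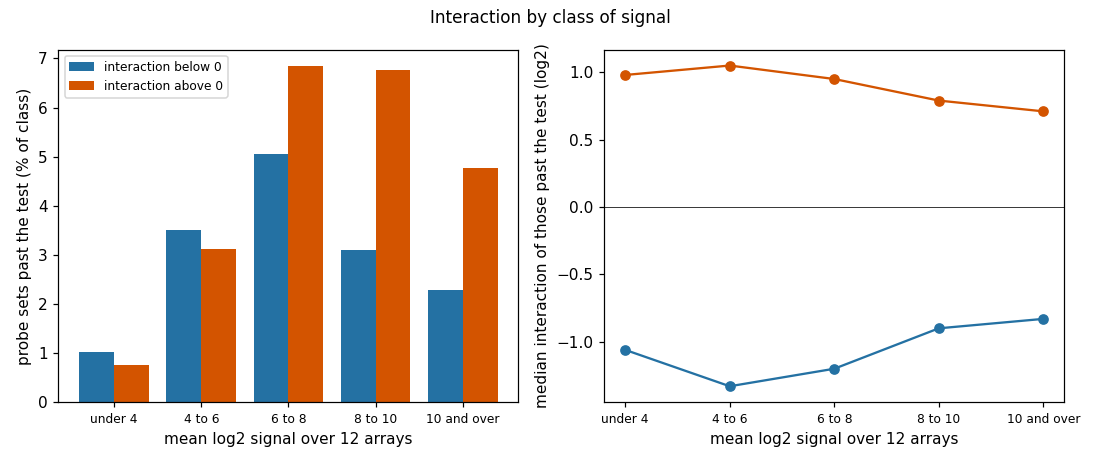
Left, the share of probe sets past the interaction test in each class of mean log2 signal over 12 arrays, below 0 (blue) and above 0 (orange); right, the median interaction of those probe sets in log2. The share past the test in either direction was highest between 6 and 8, at 11.9%, and the higher calls outnumbered the lower ones from a mean log2 signal of 6 upward.

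Most of the large interactions below 0 had their highest signal in W5D. Among the 319 lower calls of at least 2 in size, the median signal was 20.3 in M5D, 274 in W5D, 17.7 in MBF and 16.6 in WBF, and W5D was the highest group in 282, while 32 had all 4 group means at 100 or more. Among the 72 higher calls of that size the medians were 83.6 in M5D, 34.3 in W5D, 29.6 in MBF and 105 in WBF, with WBF highest in 38 and M5D in 33, and 8 had all 4 means at 100 or more. Where both genotypes were near the lowest signals at a stage, the fst effect at that stage was not measured, and the interaction rests on the other stage. Of the lower calls 509, and of the higher calls 556, had no group mean of 100 or more. In signal units in place of log2, 14 of the lower and 7 of the higher calls had the opposite sign.

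Seed storage protein genes were among the largest interactions of the array. PPROL17, CRA1, APL, HAP5, ATS3 and some others below carry the names of the study's tables. PPROL17, defined in the study's tables as a prolamin, had signals of 5.92, 9.07 and 6.97 in M5D and 2963, 9715 and 8856 in W5D, against 6.82, 6.68 and 5.62 in MBF and 6.8, 7.54 and 5.23 in WBF. All 3 W5D arrays were far above the other 9, which lay together near the lowest signals. Its interaction was -9.76 (SE 0.49, adjusted p = 2.8e-07), and WT gained 9.94 in log2 between the stages while fst changed by 0.18. In bulk panicles, fewer cells of a type and less RNA per cell cannot be told apart, here and in every result that follows. CRA1, which the annotation places on the same gene as PPROL17 (LOC9270227), had an interaction of -9.60 (SE 0.48). The study's tables define CRA1 as a glutelin type-B 1 precursor, so the definitions and the annotation conflict for these probe sets. GluB5, a glutelin gene, had 14, 11.5 and 12.3 in M5D and 2507, 5805 and 6050 in W5D, with all 6 BF arrays between 8.3 and 12.6, and an interaction of -8.64 (SE 0.39, adjusted p = 1.01e-07).

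Of 10 genes in the list of seed storage proteins, 8 had an interaction below 0 and none above, with a median of -6.30. The list holds glutelin and prolamin genes and the RA genes, rice allergens of the alpha-amylase and trypsin inhibitor family. With 1 probe set per gene, 4.19% of 17905 genes had an interaction below 0 and 6.37% above, with a median of 0.09. Among the 2459 genes with a usable name, from which the lists were drawn, these were 4.64%, 7.48% and 0.11. The counts of every list below stand beside these shares. GLUA3 (-8.20), GLUA1 (-7.64), GluC (-7.15), RA14 (-6.61), RA5 (-5.99) and PROLM25 (-5.28) were among the 8, and RA17 was the smallest at -2.24. Their group means were highest in W5D, and RA17 was dim even there, at 39.1. GLUA2 did not share it: it had 159, 139 and 235 in M5D and 166, 147 and 187 in W5D, with 861, 903 and 972 in MBF and 565, 631 and 516 in WBF, and its interaction of -0.62 did not pass (adjusted p = 0.15). The study's tables list the storage genes among transcripts that changed on these same arrays.

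**Figure D3:**
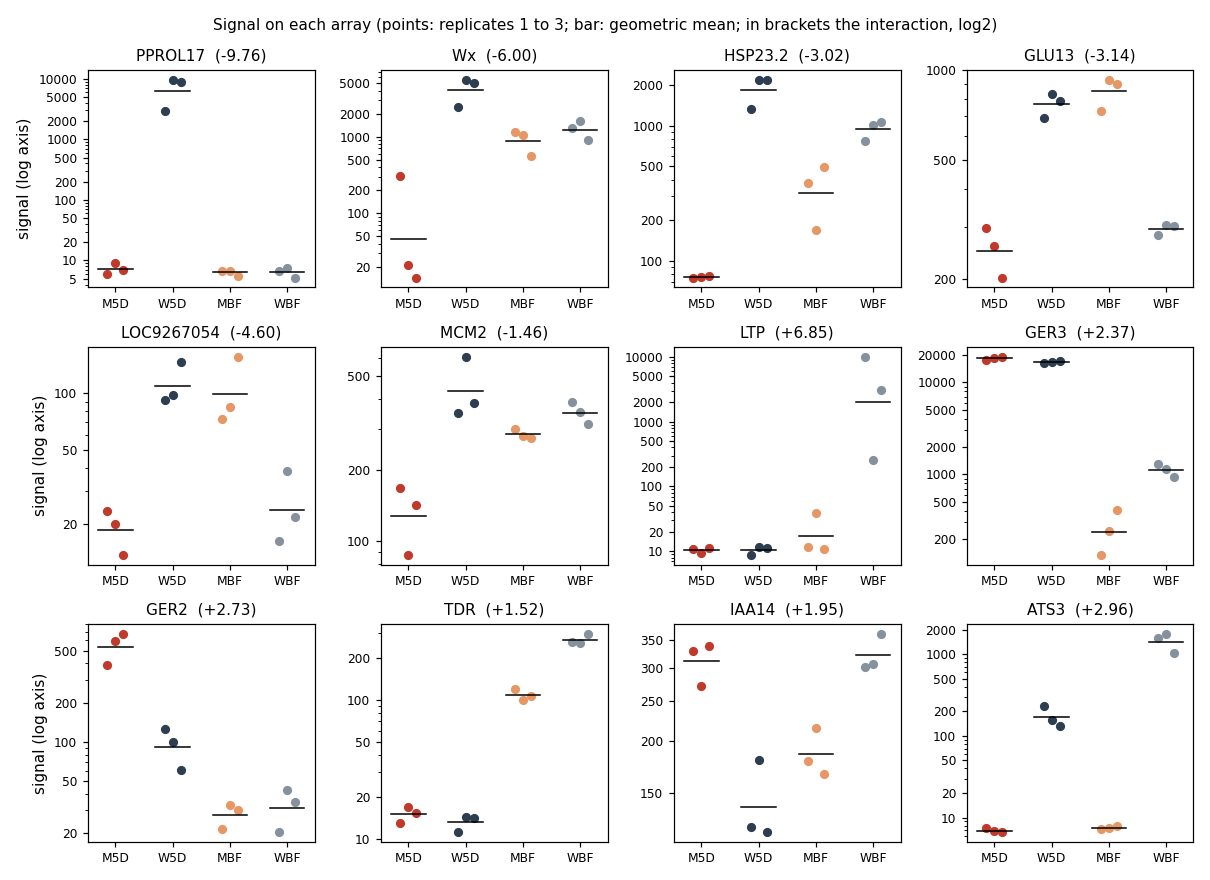
Signal of 12 probe sets on each array (points, replicates 1 to 3 from left to right; bar, geometric mean; log axis), in the groups M5D, W5D, MBF and WBF. PPROL17 was high in W5D alone; GLU13 was high in W5D and MBF; the LTP probe set was high in WBF alone; GER2 was high in M5D; ATS3 stayed near the floor in both fst groups.

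Starch synthesis showed the same direction in 4 of 8 listed genes, with a median of -0.77. Wx, the granule-bound starch synthase that makes amylose, had 309, 20.8 and 14.4 in M5D and 2424, 5577 and 5015 in W5D, against 1142, 1052 and 560 in MBF and 1316, 1589 and 904 in WBF. The genotypes overlapped before flowering and were apart at 5 DAP, where replicate 1 of M5D was high for its group. The interaction was -6.00 (SE 1.19, adjusted p = 0.0109), and -7.38 without that array. Wx differed from the storage proteins in its course: it was already on before flowering in both genotypes, and its signal fell by 4.28 in log2 between the stages in fst (adjusted p = 0.00174), while the change of 1.72 in WT did not pass (adjusted p = 0.148). ALK, a soluble starch synthase, had 75.1, 54 and 37.1 in M5D and 694, 1612 and 1407 in W5D, with all BF arrays between 64.7 and 85.8, and an interaction of -4.41 (SE 0.41). Subunits of ADP-glucose pyrophosphorylase, which supplies the glucose donor of starch, moved by unequal amounts: the large subunit APL of the study's table by -3.33 (SE 0.37, adjusted p = 0.00029) and the small subunit agps (AGPS2) by -0.96 (SE 0.24, adjusted p = 0.0345). The call of agps was lost in 10 of the 12 fits that left out 1 array.

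Sucrose synthases, which cleave the incoming sucrose, went both ways. This family, like the expansins, the cellulose synthases, the phosphate transporters, the iron chelator genes and the replication factors below, was chosen after its values were seen. SUS3 had 1618, 1151 and 1301 in M5D and 3861, 7085 and 6350 in W5D, and between 154 and 218 on all BF arrays. It went up between the stages in both genotypes, by 2.84 in fst and 4.88 in WT, and its interaction was -2.04 (SE 0.31, adjusted p = 0.00244). SUS5 and SUS6 had interactions of 1.70 and 1.49 (adjusted p = 0.0201 and 0.0244) at signals of 22.9 to 55.2 in M5D and 12.6 to 19.3 in W5D. The call of SUS5 was lost in 3 and that of SUS6 in 4 of the 12 fits without 1 array, and with signals raised to at least 32 the values were 0.42 (adjusted p = 0.421) and 0.30 (adjusted p = 0.722).

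At 5 DAP 1 array of each genotype stood apart in the large losses. In the 291 probe sets with an interaction of -2 or below that were lower in fst at 5 DAP only, M5D replicate 1 was more than 2-fold above the median of its group in 55, replicate 3 in 2 and replicate 2 in 0. W5D replicate 1 was more than 2-fold below its group median in 122, with a median deviation of -0.89 in log2. Over all 57258 probe sets, M5D replicate 1 was above this limit in 167, against 18 for replicate 2 and 201 for replicate 3, and W5D replicate 1 was below it in 168, against 10 and 56 for replicates 2 and 3. Without M5D replicate 1 the test called 1645 lower and 2064 higher, and without W5D replicate 1 it called 1408 lower and 1561 higher.

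**Figure D4:**
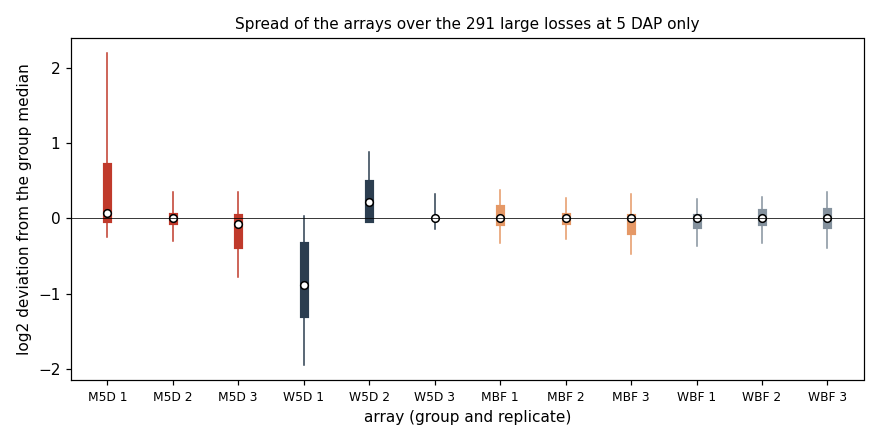
Deviation of each array from the median of its own group (log2) over 291 probe sets with an interaction of -2 or below and a loss at 5 DAP only (thin line, 5th to 95th percentile; thick line, quartiles; circle, median). W5D replicate 1 lies below its group with a median of -0.89, and the upper quartile of M5D replicate 1 lies at 0.689.

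Among regulators of endosperm and embryo, 3 of 13 listed genes were below 0 and none above, and the median was -0.11. NF-YB1 (NF-Y4 in the annotation), an endosperm CCAAT-binding factor, had 168, 17.7 and 13.9 in M5D and 392, 1115 and 740 in W5D, with all BF arrays between 11.9 and 16.7. M5D replicate 1 was again the high fst array, and the interaction was -4.50 (SE 0.98, adjusted p = 0.0176) with it and -5.64 without it. With signals raised to at least 32 it did not pass (-3.63, adjusted p = 0.062). The study's HAP5 probe set, another CCAAT-binding subunit, repeated the pattern, with 86.7, 7.63 and 8.52 in M5D, 1080, 4003 and 2423 in W5D, and an interaction of -7.18 (SE 1.02). VP1, the rice counterpart of the seed maturation factor ABI3, had an interaction of -1.35 (adjusted p = 0.0247), which was lost in 4 of the 12 fits without 1 array and was -0.30 (adjusted p = 0.62) with signals raised to at least 32. The study's IAA29-like probe set did not pass (-3.32, adjusted p = 0.12). There M5D replicate 1 read 291 beside 18.6 and 13.6, and without it the interaction was -4.72 (adjusted p = 0.000111).

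LFL1, a B3 factor related to LEC2 and FUSCA3, was high before flowering instead. It had 26.9, 16.4 and 15.5 in M5D and 50, 108 and 80.9 in W5D, against 726, 694 and 701 in MBF and 520, 526 and 372 in WBF. At 5 DAP every fst array was below every WT array, and before flowering every fst array was above. The interaction was -2.60 (SE 0.37, adjusted p = 0.00141), and of the stage effects only that at 5 DAP passed the test (-2.0, adjusted p = 0.000273), while the 0.60 before flowering did not (adjusted p = 0.208). The study's FIE2 probe set, which matches a maize Polycomb gene of the endosperm, moved by -2.50 (SE 0.48, adjusted p = 0.00963) and its seed maturation protein by -5.27 (SE 0.58). With signals raised to at least 32 these were -2.36 (adjusted p = 0.0568) and -2.85 (adjusted p = 0.042). RAB16D, a dehydrin, was the single gene past the test of 6 in the list of oil body and late embryogenesis genes, at -1.09 (adjusted p = 0.00788).

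Of 24 heat shock protein genes, 15 were lower in fst at 5 DAP, 11 were lower before flowering and none was higher at either stage. Over all probe sets, dim ones included, 5.41% were lower in fst at 5 DAP and 2.8% before flowering. Those shares are not like for like, since named genes passed more often: 4.64% had an interaction below 0, against 2.75% of all probe sets. The shares of all named genes lower at each stage were not counted. In 8 of the heat shock protein genes the loss was larger at 5 DAP or found there alone, none had an interaction above 0 past the test, and the median interaction was -0.25. HSP23.2, a small heat shock protein of the endoplasmic reticulum class, had 75.6, 76.5 and 78 in M5D and 1331, 2193 and 2161 in W5D, against 380, 169 and 497 in MBF and 767, 1016 and 1070 in WBF. At both stages the fst arrays were below the WT arrays, and the gap was wider at 5 DAP. The interaction was -3.02 (SE 0.45, adjusted p = 0.00185), made of -4.59 at 5 DAP and -1.57 before flowering, both past the test. HSP24.1, hsp17.9, HSP26.7 and HSP18.0 had interactions of -1.66, -1.58, -1.41 and -1.26, and the chaperone HSP82 of -0.83. HSP21.9 (-3.09, adjusted p = 0.0242) had 454 on M5D replicate 1 beside 90.6 and 72 on the other M5D arrays, and lost its call in 6 of the 12 fits without 1 array.

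DNA replication genes had smaller interactions at moderate signal. In the list of cell cycle, MCM and histone genes 12 of 62 were below 0 and 2 above, and the median of -0.06 became 0.03 when arrays were centred. The list's 12 include 5 minichromosome maintenance genes, whose products are subunits of the replicative helicase. MCM2 had 168, 87.4 and 142 in M5D and 350, 606 and 387 in W5D, against 300, 279 and 274 in MBF and 390, 353 and 314 in WBF. All 3 M5D arrays were below the other 9. Its interaction was -1.46 (SE 0.33, adjusted p = 0.0198), and those of MCM4, MCM3, MCM7 and MCM6 were -1.47, -1.44, -1.25 and -1.17. Its signal fell by 1.15 in log2 between the stages in fst (adjusted p = 0.00191) and changed by 0.31 in WT (adjusted p = 0.355). The mitotic genes CYCB2 (-1.81) and CDKB;2 (-1.30), the sliding clamp PCNA (-0.95) and the centromere histone CenH3 (-0.94) were also among the 12, while CYCD4-2 (0.93) and CDKG-1 (0.81) were the 2 above 0. Of 12 genes of replication protein A, which coats single-stranded DNA, and of the clamp loader, 4 were below 0: RPA1B (-1.52), RPA2A (-1.07), RPA3 (-0.62) and RFC3 (-0.52).

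**Figure D5:**
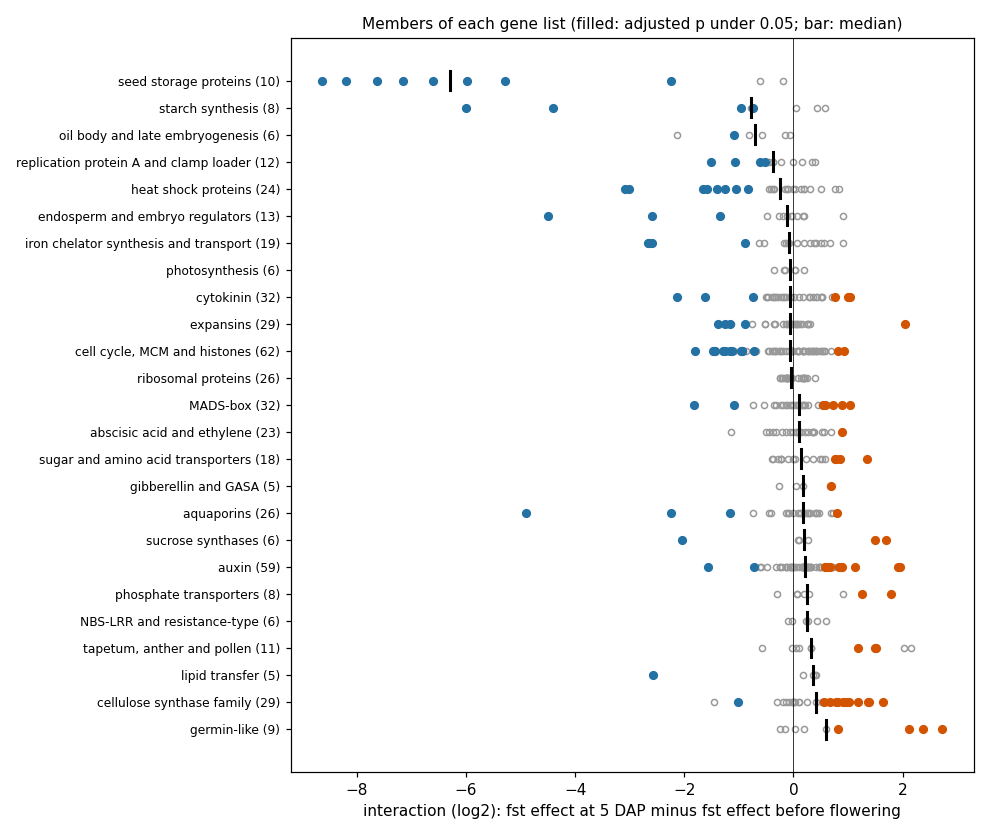
Interaction (log2) of each gene of 25 lists, with the number of genes in brackets (filled points, adjusted p under 0.05, blue below 0 and orange above; open points, not past the test; bar, median of the list). The seed storage list has its median at -6.30 and 8 of 10 genes past the test, while the germin-like list at 0.60 and the cellulose synthase family at 0.42 lie furthest to the right.

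Of 19 genes of iron chelator synthesis and transport, 4 were below 0 and none above, 15 did not pass, and the median was -0.09 (0.0 after centring). Nicotianamine synthases make nicotianamine from S-adenosylmethionine, and nicotianamine aminotransferase takes it on toward the phytosiderophores with which grasses carry iron. NAAT1 had 228, 217 and 175 in M5D and 942, 957 and 862 in W5D, against 326, 420 and 384 in MBF and 206, 304 and 301 in WBF. At 5 DAP the fst arrays were far below the WT arrays, and before flowering they were above them by an effect that did not pass (0.49, adjusted p = 0.0989). The interaction was -2.66 (SE 0.23, adjusted p = 2.78e-05). NAS1 (-2.65, SE 0.50) and NAS2 (-2.60, SE 0.45), which are direct neighbours on chromosome 3 with 0 genes between them, moved by nearly the same amount, and the probe sets of such close copies can share transcript. YSL8 was the fourth past the test (-0.89, adjusted p = 0.0272).

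Vacuolar aquaporins and a lipid transfer protein of the seed were lower in fst at 5 DAP alone. TIP3, a tonoplast aquaporin, had 91.4, 42.3 and 44.4 in M5D and 873, 2943 and 2063 in W5D, with BF arrays between 11.1 and 15.7. The interaction was -4.90 (SE 0.53, adjusted p = 0.00022), and that of TIP3-2 was -2.24, which was -1.03 and did not pass (adjusted p = 0.142) with signals raised to at least 32. LTP-2, a nonspecific lipid transfer protein, had 389, 477 and 466 in M5D and 1849, 4076 and 3491 in W5D, and an interaction of -2.57 (SE 0.38, adjusted p = 0.00181). In both genotypes the LTP-2 signal went up between the stages, by 1.95 in fst and by 4.52 in WT. Of 26 aquaporins 3 were below 0 and 1 above, and of 5 lipid transfer genes 1 was below 0.

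Some cell wall genes reversed their fst effect between the stages. GLU13, an endo-1,4-beta-glucanase of the wall, had 297, 258 and 203 in M5D and 692, 829 and 786 in W5D, against 728, 928 and 899 in MBF and 281, 304 and 302 in WBF. Every fst array was below every WT array at 5 DAP and above every WT array before flowering. Both effects passed the test (-1.62 at 5 DAP and 1.52 before flowering), and the interaction was -3.14 (SE 0.20, adjusted p = 2.27e-06). GLU8, of the same family, had 30.9, 22.1 and 28.5 in M5D and 63.7, 102 and 118 in W5D, against 293, 346 and 400 in MBF and 96.1, 180 and 93.7 in WBF, and an interaction of -3.32 (SE 0.38). Opposite effects that each passed the test were found at 133 probe sets of the array (0.232%), 44 with an interaction below 0 and 89 above. Below 0 these included LOC9267054 (-4.60, SE 0.48) and LOC4351893 (-4.11, SE 0.62), for which the annotation gives no name.

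Of 29 expansins, which loosen the wall, 5 were below 0 and 1 above and 23 did not pass, with a median of -0.06 that became 0.03 after centring. EXP5 had 555, 442 and 476 in M5D and 733, 901 and 632 in W5D, against 229, 283 and 267 in MBF and 144, 155 and 157 in WBF, so the genotypes were apart in opposite directions. Both effects passed, at -0.61 and 0.77, and the interaction was -1.38 (SE 0.20, adjusted p = 0.00145). EXP29 and EXP2 passed before flowering only (1.21 and 0.88 higher in fst), with interactions of -1.16 and -0.89. EXLA4, an expansin-like gene, was the one above 0, at 2.05 (SE 0.32), with 574, 738 and 790 in M5D and 200, 185 and 215 in W5D.

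On the higher side, the largest interaction belonged to a transcript with a high signal in WBF alone. The LTP family protein of the study's table (LOC4348109) had 10.9, 9.35 and 11.1 in M5D and 8.88, 11.6 and 11.1 in W5D, against 11.6, 39.5 and 11 in MBF and 9998, 257 and 3058 in WBF. All 3 WBF arrays were above the other 9, but they lay far apart among themselves. The interaction was 6.85 (SE 1.33, adjusted p = 0.00964) and ranged between 5.69 and 8.33 when 1 array was left out. It did not pass with signals raised to at least 32 (5.86, adjusted p = 0.0745). The gastric lipase probe set (2.70, adjusted p = 0.0137) and CAS1, a cycloartenol synthase that starts sterol synthesis (2.39, adjusted p = 0.000414), were also highest in WBF and near the floor at 5 DAP, but both had a clear signal in MBF. CAS1 was between 8.24 and 13 on all arrays of 5 DAP, and read 257, 304 and 170 in MBF and 1003, 864 and 1227 in WBF. The gastric lipase did not pass with signals raised to at least 32 (2.66, adjusted p = 0.0617).

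Some tapetum genes were lower in fst before flowering and near the floor in both genotypes at 5 DAP. TDR, a bHLH factor of tapetum degeneration, had 13, 17 and 15.4 in M5D and 11.2, 14.4 and 14.2 in W5D, against 119, 99.1 and 106 in MBF and 260, 254 and 297 in WBF. The genotypes overlapped at 5 DAP and were apart before flowering. The interaction was 1.52 (SE 0.19, adjusted p = 0.000593). EAT1, which acts after TDR, had an interaction of 1.49 (SE 0.22, adjusted p = 0.00201), and RAFTIN1, a tapetum protein carried to pollen, of 1.19 (adjusted p = 0.0408), which was lost in 10 of the 12 fits without 1 array. In all, 3 of 11 listed genes were above 0 and none below, with a median of 0.33. The 9 tapetum and pollen markers summed to 780 to 967 in M5D and 854 to 977 in W5D, against 3359 to 10127 in MBF and 9193 to 19394 in WBF. The largest part of the sums before flowering was RTS, with means of 3662 in MBF and 12255 in WBF. RTS, OsC6, PTC1, MSP1, CYP703A3 and GAMYB did not pass. PTC1 and CYP703A3 were near the floor in all groups (means of 12.1 to 13.1 and 9.73 to 11.4), so no fst effect was measured for them. RTS and OsC6 varied widely among BF arrays: RTS read 2008, 7607 and 1371 in MBF and 14625, 6518 and 15621 in WBF. The effects of TDR, EAT1 and RAFTIN1 at 5 DAP did not pass (0.19, 0.07 and 0.24), so their interactions carry little but the effect before flowering.

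Germin-like proteins, secreted proteins of the cell wall, had the highest median of the 25 lists, 0.60, with 4 of 9 genes above 0 and none below. GER3, GER2 and GER1 are direct neighbours on chromosome 8, with 0 genes between them, and reached their interactions by different routes. GER3 had 17394, 18515 and 18954 in M5D and 16071, 16780 and 17055 in W5D, against 134, 243 and 410 in MBF and 1290, 1136 and 947 in WBF. At 5 DAP the fst arrays were just above the WT arrays, with an effect of 0.14 that did not pass (adjusted p = 0.863), and before flowering they were well below them. The interaction was 2.37 (SE 0.40, adjusted p = 0.00428), from a gain between the stages of 6.27 in fst and 3.90 in WT. 

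GER2 and GER1 instead differed at 5 DAP alone. GER2 had 390, 595 and 673 in M5D and 126, 100 and 60.4 in W5D, against 21.4, 33 and 30.1 in MBF and 20.4, 42.6 and 34.8 in WBF. The genotypes overlapped before flowering, and every M5D array was above every W5D array. The interaction was 2.73 (SE 0.44, adjusted p = 0.00335), with an effect of 2.56 at 5 DAP. GER1 had 121, 168 and 287 in M5D and 53.1, 29.5 and 23.3 in W5D, with an interaction of 2.11 (SE 0.46, adjusted p = 0.0184). GER5 was the fourth (0.81, adjusted p = 0.0474).

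Of 59 auxin genes, 10 were above 0 and 2 below, with a median of 0.22, and 22 were higher in fst at 5 DAP. Over all probe sets, dim ones included, 6.22% were higher in fst at 5 DAP. That share is not like for like, since named genes passed more often: 7.48% had an interaction above 0, against 3.6% of all probe sets. The share of all named genes higher at 5 DAP was not counted. Aux/IAA proteins repress auxin response and ARF proteins carry it out on promoters. IAA14 had 330, 272 and 338 in M5D and 124, 180 and 121 in W5D, against 179, 215 and 167 in MBF and 302, 307 and 362 in WBF. The genotypes were apart at both stages, fst above at 5 DAP and below before flowering. Both effects passed (1.16 and -0.79), and the interaction was 1.95 (SE 0.23, adjusted p = 0.000382). IAA8 had an interaction of 1.91 (SE 0.26, adjusted p = 0.00112), with 354, 401 and 499 in M5D and 110, 158 and 178 in W5D. IAA18 (1.13), ARF3 (0.88) and IAA10 (0.83) were also above 0, and IAA20 (-1.56) and ARF13 (-0.73) below. IAA20 was dim, between 9.39 and 33.9 on all arrays, and was -0.05 (adjusted p = 0.392) with signals raised to at least 32.

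Cytokinin genes went both ways. The response regulators RR5 (-1.63, adjusted p = 0.00142) and RR33 (-2.13, adjusted p = 0.0428) and the phosphotransfer protein AHP1 (-0.75) were below 0, while the receptors HK5 (1.03) and HK4 (0.99) and the activating enzyme LOGL10 (0.76) were above. That made 3 and 3 of 32 genes, with a median of -0.06 that became 0.04 after centring. RR33 lost its call in 9 of the 12 fits without 1 array. Of 5 gibberellin genes found by annotation name GA20OX3 alone passed (0.69, adjusted p = 0.0306), and of 23 abscisic acid and ethylene genes ERS2 alone (0.89, adjusted p = 0.029). These calls were lost in 7 and in 6 of the 12 fits without 1 array. Outside the gibberellin list, the study's GA-regulated family protein went the other way, at -2.54 (SE 0.28, adjusted p = 0.000255). It was lower in fst at 5 DAP only. The study's GA-regulated protein 2 did not pass (-0.83, adjusted p = 0.333).

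Cellulose synthases and their relatives were above 0 in 11 of 29 genes and below in 1, with a median of 0.42. CESA5, a catalytic subunit, had 1344, 1684 and 2334 in M5D and 670, 864 and 767 in W5D, against 646, 672 and 592 in MBF and 958, 767 and 886 in WBF. Every fst array was above every WT array at 5 DAP and below before flowering, though only the effect at 5 DAP passed (1.19, adjusted p = 0.000637). The interaction was 1.64 (SE 0.25, adjusted p = 0.00209). CESA6, CESA1, CESA8 and CESA3 followed at 1.02, 0.97, 0.78 and 0.67. CSLC2 (1.38, SE 0.14) had effects of both signs past the test, 0.78 at 5 DAP and -0.60 before flowering, and CSLF6, which makes the mixed-linkage glucan of grass walls, had 1.36 (SE 0.26). CSLD5 was the one below 0 (-1.01), with 0.96 before flowering in fst and signals of 12.1 and 12.5 in M5D and W5D.

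Of 18 sugar and amino acid transporters 4 were above 0 and none below, with a median of 0.13. SWEET15, a sucrose exporter, had 641, 655 and 847 in M5D and 193, 248 and 431 in W5D, with BF arrays between 232 and 296. The interaction was 1.34 (SE 0.32, adjusted p = 0.0285), lost in 6 of the 12 fits without 1 array. SWEET1A (0.78), SWEET2B (0.85) and SUT2 (0.76) were the others, and SWEET2B lost its call in 4 such fits. The phosphate transporters PHT1-7 (1.78) and PHT1-12 (1.26) were lower in fst before flowering and below 20 in signal on all arrays of 5 DAP, and they lost their calls in 7 and in 8 of the 12 fits. LOC4325094, defined in the study's tables by likeness to a castor bean amino acid transporter, had 1551, 1425 and 1318 in M5D and 225, 319 and 236 in W5D, against 233, 231 and 251 in MBF and 191, 206 and 182 in WBF. The M5D arrays were above the other 9, and the interaction was 2.17 (SE 0.18, adjusted p = 2.69e-05).

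Some positive interactions belonged to transcripts that were lower in fst at both stages and less so at 5 DAP. ATS3, named for an Arabidopsis embryo-specific protein, had 7.38, 6.77 and 6.68 in M5D and 234, 157 and 131 in W5D, against 7.17, 7.55 and 7.94 in MBF and 1588, 1764 and 1035 in WBF. The 6 fst arrays lay near the lowest signals and the genotypes were apart at both stages. Its interaction of 2.96 (SE 0.30, adjusted p = 0.000115) is nearly the WT change between the stages, -3.08, since the fst change was -0.12. RLK17, a receptor-like kinase (3.02), and the UBQ1, RPL40B probe set (2.93) were lower in fst at both stages. Between the stages UBQ1, RPL40B fell in both genotypes, with -2.12 in fst and -5.06 in WT. RLK17 instead had 0.68 in fst (adjusted p = 0.041) and -2.34 in WT. Its fst signals were near the floor, with means of 7.06 in MBF and 11.5 in M5D. The study's RPM1 (2.07), NBS-LRR class (1.80) and Pikm2-TS (1.08) probe sets match disease resistance genes and were lower in fst at both stages too. RPM1 and NBS-LRR class were higher at 5 DAP than before flowering in fst (1.48 and 1.5), while their changes in WT did not pass (-0.59 and -0.30). These 3 calls were lost in 2, 7 and 10 of the 12 fits without 1 array, and with signals raised to at least 32 the interactions were 0.62 (adjusted p = 0.282), 0.30 (adjusted p = 1.0) and 0.89 (adjusted p = 0.168). NBS-LRR class and Pikm2-TS also lost the call with the replicate number as a block (adjusted p = 0.0512 and 0.0681). APP (1.89) lost its call in 6 of the 12 fits. For Mla10 (1.04, adjusted p = 0.131), OsPAD1 (0.73, adjusted p = 0.246), YR5 (0.78, adjusted p = 0.242) and the exportin-like HST (0.13, adjusted p = 0.862) a difference between the stages was not shown. YR5 passed without WBF replicate 3 (1.13, adjusted p = 0.043). HST passed with signals raised to at least 32 (1.97, adjusted p = 0.025), but all its fst arrays lay below 32 (6.49 to 29.9). Raising them removed the fst change between the stages (-1.85), so that value is the WT change (-1.97) with its sign turned. Of 6 resistance-type genes found by annotation name none passed.

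Of the study's table of transcripts changed before flowering, 14 of 21 probe sets had an interaction above 0, 1 below and 6 did not pass. IP3K (-3.08, adjusted p = 0.0145) was the one below. Of its table of 5 DAP, 24 of 33 were below 0, 3 above and 6 did not pass. These tables were picked for their change at 1 stage on the same arrays, so the choice favours an interaction toward that stage.

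Other large positive interactions came from transcripts that fst gained at 5 DAP. The probe set that the study's tables define as a leaf-specific beta-amylase had 89.2, 99.1 and 151 in M5D and 5.31, 7.2 and 7.49 in W5D, against 15.9, 16.5 and 12.8 in MBF and 273, 11.6 and 25.2 in WBF. WBF replicate 1 stood apart from its group, and the interaction was 5.58 (SE 1.12, adjusted p = 0.0112) with it and 4.25 (adjusted p = 0.000195) without it. With signals raised to at least 32 it did not pass (2.81, adjusted p = 0.198). LOC4325422 had 47.2, 54.8 and 150 in M5D and 7.18, 8.45 and 10 in W5D, with BF arrays between 5.8 and 6.37, and an interaction of 3.12 (SE 0.45). A root-specific RCc2 probe set had 64.6, 244 and 276 in M5D and 11.4, 17.2 and 17.4 in W5D, and an interaction of 3.18 (SE 0.57). A thaumatin-like probe set (LOC4352856) showed the other route, with 71.2, 44.5 and 36.5 in MBF and 1148, 1003 and 962 in WBF, and an interaction of 3.36 (SE 0.48, adjusted p = 0.00141). LOC4346832 (4.19, adjusted p = 0.0292) took that route too, and its fst effect passed before flowering only (-3.14, adjusted p = 0.0277). It read 5.95, 6.79 and 6.05 in MBF and 46.9, 56.2 and 63.7 in WBF. At 5 DAP it had 319, 19.5 and 211 in M5D and 68.4, 48.6 and 45 in W5D, so the genotypes overlapped. Its call was lost in 9 of the 12 fits without 1 array. It was also lost with signals raised to at least 32 (2.07, adjusted p = 0.376) and with a trended robust variance (adjusted p = 0.0859). On the raised scale RCc2 and LOC4325422 did not pass either (2.35 and 1.19, adjusted p = 0.0927 and 0.286). A probe set with no listed gene did pass on it (2.03, adjusted p = 0.011). Its unraised interaction was 4.31 (SE 0.34), with 84.8, 164 and 161 in M5D and 8.12, 5.69 and 9.58 in W5D. Another such probe set (4.43, SE 0.55) passed on the raised scale too (4.22, adjusted p = 0.01). Its fst effect passed before flowering only (-3.18).

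Stage dependence was also found where the mean of every group was 100 or more. Of 17049 such probe sets, 459 were below 0 and 1046 above, 8.83% together, with interactions between -6.00 and 2.68. Those of at least 2 in size numbered 32 below and 8 above. The lowest of them was Wx, whose M5D mean of 115 rests on replicate 1, with the other 2 M5D arrays near the floor. GLU13 was also among the lowest, with a Nudix hydrolase (LOC4342715, -3.40, SE 0.42) and a probe set of LOC9270227 that did not sink to the floor (718, 664 and 500 in M5D, and 8938, 21133 and 15979 in W5D), with an interaction of -4.74 (SE 0.34). LOC9270100 (2.68, SE 0.36), LOC4341940 (2.56, SE 0.33) and LOC4327977 (2.19, SE 0.23) were among the highest. LOC4327977 had 239, 259 and 324 in M5D and 163, 125 and 121 in W5D, against 138, 110 and 153 in MBF and 316, 318 and 271 in WBF. The genotypes were apart at both stages, with opposite effects that both passed (1.01 and -1.18).

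FST itself had an interaction of -1.09 (SE 0.18, adjusted p = 0.00326), from an excess in fst before flowering. It had 1378, 1058 and 1340 in M5D and 1268, 1523 and 1263 in W5D, against 235, 211 and 236 in MBF and 116, 123 and 106 in WBF. The genotypes overlapped at 5 DAP and were apart before flowering. The mutation shifts the reading frame and leaves the transcript in place, so the probe set does not check the labels. OsMADS30, a B-sister relative, stayed between 4.08 and 10.8 on all arrays and did not pass (-0.06, adjusted p = 0.906). Of 32 MADS-box genes 2 were below 0 and 5 above, with a median of 0.10. OsMADS22, a floral meristem gene, was the other below 0 (-1.82, SE 0.35), and OsMADS26 (1.04) and OsMADS3 (0.73) were among those above. OsMADS26 lost its call in 4 of the 12 fits without 1 array. The ovule gene OsMADS13 had 1978, 2129 and 1836 in M5D and 996, 1128 and 950 in W5D, against 508, 527 and 631 in MBF and 450, 398 and 413 in WBF, and an interaction of 0.55 (adjusted p = 0.0613). The ovule gene OsMADS21 was higher in fst at both stages by 0.79 and 0.83, with an interaction of -0.04 (adjusted p = 0.94).

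Among the tissue markers, mostly those of the endosperm had interactions past the test. Of the others, 3 of 9 tapetum and pollen markers and 1 of 4 ovule and carpel markers passed. Embryo markers were not summed. The 7 endosperm markers summed to 223 to 681 in M5D and 7090 to 19913 in W5D, against 1583 to 2068 in MBF and 1470 to 2275 in WBF, and 6 of them were below 0. The sums before flowering came almost wholly from GLUA2 (means of 912 in MBF and 571 in WBF) and Wx (918 and 1270). The rest had means of 20.3 or below there. In M5D the defining markers GLUA1, GLUA3 and GluB5 were between 5 and 14 on every array and PROLM25 between 17.8 and 22.5. GLUA2 was between 139 and 235 there, and Wx and NF-YB1 reached 309 and 168 on replicate 1. The 4 ovule and carpel markers summed to 3813 to 4077 in M5D and 2079 to 2441 in W5D, against 1766 to 1927 in MBF and 1432 to 1669 in WBF. The small subunit of Rubisco, a marker of green glume tissue, read 4960 to 5411 in M5D and 3149 to 3745 in W5D, against 4993 to 5783 in MBF and 3578 to 4326 in WBF, with an interaction of 0.19 (adjusted p = 0.504). The part of tissue composition in the other interactions was not tested.

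Ribosomal protein genes (0 of 26 past the test, median -0.05) and photosynthesis genes (0 of 6, median -0.06) gave no call, and both medians turned positive after centring (0.04 and 0.03).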

How the data were processed

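Panicle RNA of 12 samples was hybridized to Affymetrix Rice GeneChips. The authors summarized probes by RMA, run in Expression Console of Affymetrix (versions not given in the sources used here), and the deposited intensity values are its summarized signals on a linear scale. RMA makes the distributions of the arrays alike, which can hide a shift shared by most genes. Signals were taken to log2, 123 control probe sets were left out, and limma 3.58.1 (R 4.3.3) fitted a mean per group to 57258 probe sets (8 residual degrees of freedom, eBayes, Benjamini-Hochberg adjustment over all probe sets, threshold 0.05). An exact permutation of 3 against 3 arrays can give no p below 0.1, so the adjusted p values are from limma. The number of arrays limits the precision. On simulated data with 100 planted interactions of each size, 48 of size 1 and 93 of size 2 were recovered. The simulation held independent normal noise and no other changes, and 8 probe sets without a planted one were also called. The data hold far more calls, so the adjusted threshold was stricter in the simulation, and these shares do not carry over.

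The members and lists were chosen with earlier results of these data known. Lists used annotation names, with the probe set of highest mean log2 signal for each of 17905 genes, of which 2459 carried a usable name. Named genes were FST and its relatives, the 12 probe sets of greatest interaction either way, the 5 greatest with all group means at 100 or more, the 5 greatest with opposite effects, 3 of each list, the study's tables and a few unnamed probe sets. Alternatives covered normalization, centring, filters, a floor of 32, cross-hybridizing probe sets, the variance model, array weights, the replicate block, a threshold of 0.01 and leaving out each array. Promoter motifs were not analysed here.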

Additional observations from a re-analysis of the deposited data

Results flagged for a closer look

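The interaction is itself a test of a difference between groups, and each result here passed it: 3636 probe sets in all, 1574 below 0 and 2062 above. Among the named genes, those below had fst effects of opposite sign at the stages, with each effect past the test on its own.

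With fst lower at 5 DAP and higher before flowering, the interactions were -4.60 for LOC9267054, -4.11 for LOC4351893, -3.32 for GLU8, -3.14 for GLU13, -2.95 for CPK21, -1.71 for AGO14 and -1.38 for EXP5. LOC9267054 read 23.5, 20 and 13.8 in M5D and 91.5, 97.9 and 147 in W5D, against 73.1, 84.5 and 156 in MBF and 16.3, 38.4 and 21.9 in WBF. LOC4351893 was dim throughout, between 4.16 and 86.4 on all arrays, and with signals raised to at least 32 its interaction was -1.44 (adjusted p = 0.0195).

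With fst higher at 5 DAP and lower before flowering, the interactions were 3.08 for a probe set with no listed gene, 2.68 for LOC9270100, 2.56 for LOC4341940, 2.19 for LOC4327977, 1.95 for IAA14 and 1.38 for CSLC2. LOC9270100 read 579, 665 and 865 in M5D and 202, 255 and 205 in W5D, against 466, 230 and 225 in MBF and 485, 736 and 571 in WBF, so 1 MBF array came close to the WBF arrays.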

How the results depend on the processing

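No probe set called here and under an alternative had opposite signs. With a threshold of 0.01 there were 1206 calls, 618 below 0 and 588 above. Leaving out 1 array gave between 2159 and 3709 calls, with 1045 to 1645 below 0 and 1114 to 2110 above. The lowest counts came without WBF replicate 1 (2159, 1045 and 1114). Without W5D replicate 3 there were 2291 calls, 1215 of them above 0, and calls above 0 also dropped without MBF replicate 1 (1318), WBF replicate 2 (1344) and W5D replicate 2 (1355). The other alternatives gave between 2612 calls (signals raised to at least 32, of which 1985 were shared) and 4839 (array weights). Median centring gave 1249 below 0 and 2947 above.

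Replicate numbers did not pair the arrays: over 18 pairs of same-numbered arrays, the correlation of deviations from the group means lay between -0.29 and 0.0724. The replicate block gave 2785 calls, 1280 below 0 and 1505 above, of which 2688 were shared.

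Of 149 named probe sets 128 passed. Of these, 22 lost the call when some array was left out, and 34 under another alternative than the stricter threshold, 31 of them with signals raised to at least 32. None changed sign. Those 31 included MCM2, CYCB2, RPA2A, FIE2, agps, VP1, SUS5, SUS6, RPM1, NBS-LRR class, Pikm2-TS, TIP3-2, IAA20, LOC4325422, LOC4346832, RCc2 and the gastric lipase. MCM2, CYCB2, RPA2A and agps had no array below 32, so their interactions stayed at -1.46, -1.81, -1.07 and -0.96. Only their adjusted p moved, and it rests on a variance estimate and an adjustment shared by all probe sets. The cause of the other losses was not tested. Of the 21 that did not pass, 8 passed under some alternative, among them HST, RTS, OsC6, GLUA2 and OsMADS13. The block ended the call of 5, quantile normalization of 3, and array weights and the trended robust variance of 4 each. Of 3444 genes with several probe sets, 604 had at least 1 called, 90 had all called and 3 had calls in both directions (chosen after seeing the data).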

Other observations

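The genes of this section were chosen one by one after their values were seen, and stand for no gene group. AGO14, an Argonaute gene, had 265, 195 and 268 in M5D and 419, 603 and 539 in W5D, against 473, 455 and 457 in MBF and 293, 352 and 267 in WBF. Arrays of fst were below those of WT at 5 DAP and above them before flowering, with an interaction of -1.71 (SE 0.23, adjusted p = 0.000851 from limma). MET1B, a maintenance methyltransferase for CG sites, had an interaction of -1.59 (SE 0.31, adjusted p = 0.0102) with 301, 177 and 265 in M5D and 580, 953 and 898 in W5D. CMT3, a chromomethylase, had -1.41 (SE 0.32, adjusted p = 0.0223), lost in 3 of the 12 fits without 1 array.

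CPK21, a calcium-dependent protein kinase, had 42.7, 23.3 and 26.4 in M5D and 90.3, 132 and 107 in W5D, against 729, 960 and 1493 in MBF and 373, 514 and 579 in WBF. NRAMP5, a manganese transporter, had 2175, 1988 and 2226 in M5D and 819, 724 and 590 in W5D, against 943, 880 and 1119 in MBF and 1394, 1153 and 1089 in WBF. Its change between the stages was 1.12 in fst and -0.77 in WT, and the interaction was 1.90 (SE 0.20, adjusted p = 0.000162). Of the trehalose-6-phosphate phosphatases, TPP3 had an interaction of -2.20 (SE 0.43) and TPP4 of 0.89 (SE 0.15).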
